A study of Mus musculus with 4 samples.

Results

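The subject is the TGF-beta and BMP signalling pathway, followed as 45 genes that encode its ligands, extracellular antagonists, receptors, Smad proteins and target genes. The genes were picked by symbol from 4 tables of read counts that list 24421 symbols, and all 45 were found and had enough reads to be tested, among 15012 genes tested in all. The libraries hold poly(A) RNA of neural stem cells from the C57BL/6J mouse cerebral cortex, taken at embryonic day 17 and grown for 1 day in medium with EGF and bFGF (10 ng/mL of each). There were 2 libraries labelled conditional knockout (Prrc2bf/f; Nestin-Cre), from cells that carry loxP-flanked Prrc2b alleles and a Cre transgene under control elements of Nestin, a gene active in neural progenitors. They were compared with 2 libraries labelled Prrc2bf/f, the floxed control, from cells with the same flanked alleles and no Cre in their label. The labels do not tie replicates to separate embryos or cultures. The p-values therefore reflect how far these libraries varied, and that variation may be technical. The comparison asks how the RNA of these genes differed between cells with and without the Cre that is meant to delete Prrc2b.

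Ligands of this family are secreted dimers that bind paired type I and type II receptor kinases. TGF-beta and activin signals pass through the receptor-regulated Smads Smad2 and Smad3, whereas BMP signals pass through Smad1, Smad5 and Smad9, and both kinds share Smad4 as partner in the nucleus. Secreted antagonists such as noggin and chordin trap BMPs, follistatin traps activins, and Smad6 and Smad7 block the receptors from inside the cell. In the developing forebrain BMPs from the dorsal midline pattern the choroid plexus and cortical hem, BMP signalling drives the Id genes and favours astrocyte over neuron formation, and TGF-beta signalling acts on progenitors, neurons, vessels and glia.

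Counts assigned to genes ranged from 25936794 to 28263272 per library. Prrc2b had 574 and 572 counts-per-million (CPM, scaled by trimmed mean of M values) in the libraries labelled knockout, against 588 and 594 CPM in floxed control libraries, so the deletion cannot be checked from the total over the gene. The labels do not say which exons the loxP sites flank. Its paralogs had 665 and 661 CPM (Prrc2a) and 399 and 396 CPM (Prrc2c) in libraries labelled knockout, against 658 and 674 CPM and 430 and 414 CPM in floxed control libraries. Of the Y chromosome, Uty, Ddx3y, Kdm5d and Eif2s3y had 0 counts in both libraries labelled knockout and 6.81 to 24.5 CPM in floxed control libraries. Xist, the RNA of the inactive X chromosome, had 2118 to 2209 CPM in libraries labelled knockout and 1615 to 1672 CPM in floxed control libraries. Floxed control libraries thus held both Xist and Y-linked RNA, while libraries labelled knockout held only Xist of these. Genotype label, Cre and the mix of sexes among the embryos therefore cannot be told apart in any value that follows. Among the 45 genes the BMP antagonist gene Chrdl1 is X-linked, and the other 44 are autosomal. The labelled cell type was checked on 12 neural stem cell and radial glial markers, which summed to 7942 to 7950 CPM in libraries labelled knockout and 8942 to 9038 CPM in floxed control libraries. Neuronal, astrocyte and oligodendrocyte lineage markers were also abundant, as given with the plot of marker lists.

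The 45 genes were chosen with earlier results of these data known. Their shares beside those of all genes therefore describe the list, and cannot show that this pathway changed more than others. Of the 45 pathway genes, 26 passed the test (57.8%; edgeR quasi-likelihood test, adjusted p under 0.05 over all genes), against 33.1% of all genes tested. Of these, 6 were higher in the libraries labelled knockout (13.3%, against 15.1% of all genes) and 20 were lower (44.4%, against 18.1%). The median log2 fold change, libraries labelled knockout over floxed control, was -0.12 over the 45 genes and 0.00 over all genes tested, and the median size of the change was 0.16 and 0.12. The pathway genes had a median level of 37.6 CPM, against 29.8 CPM for all genes tested. The test resolves smaller changes where counts are higher, and whether this bears on the share called was not tested. In bulk RNA, fewer cells of a type and less RNA per cell cannot be told apart. Most differences were small. A change of at least 1.5-fold was called for 9 of the 45 (20%, against 5.75% of all genes). Of these, Bmp4 and Bmp6 were higher (1.78% of all genes were higher by this rule). Bmp2, Bmp5, Tgfb1, Chrdl1, Tgfbr2, Smad3 and Tgfbi were lower (3.97% of all genes). Just inside that limit lay Chrdl1 (-0.60) and just outside it Fstl1 (-0.53). For 31 of the 45 genes the groups had no overlap in CPM (68.9%, against 64.9% of all genes). With DESeq2 in place of edgeR, 3 of the 45 were higher and 15 lower, against 1055 and 1642 of the 15012 genes tested. Of all called genes 45.5% were higher in libraries labelled knockout, and 56.2% with upper quartile scaling. Under that scaling 7 of the 45 were higher and 20 lower, against 2939 and 2288 of the 15012 genes tested.

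**Figure D1:**
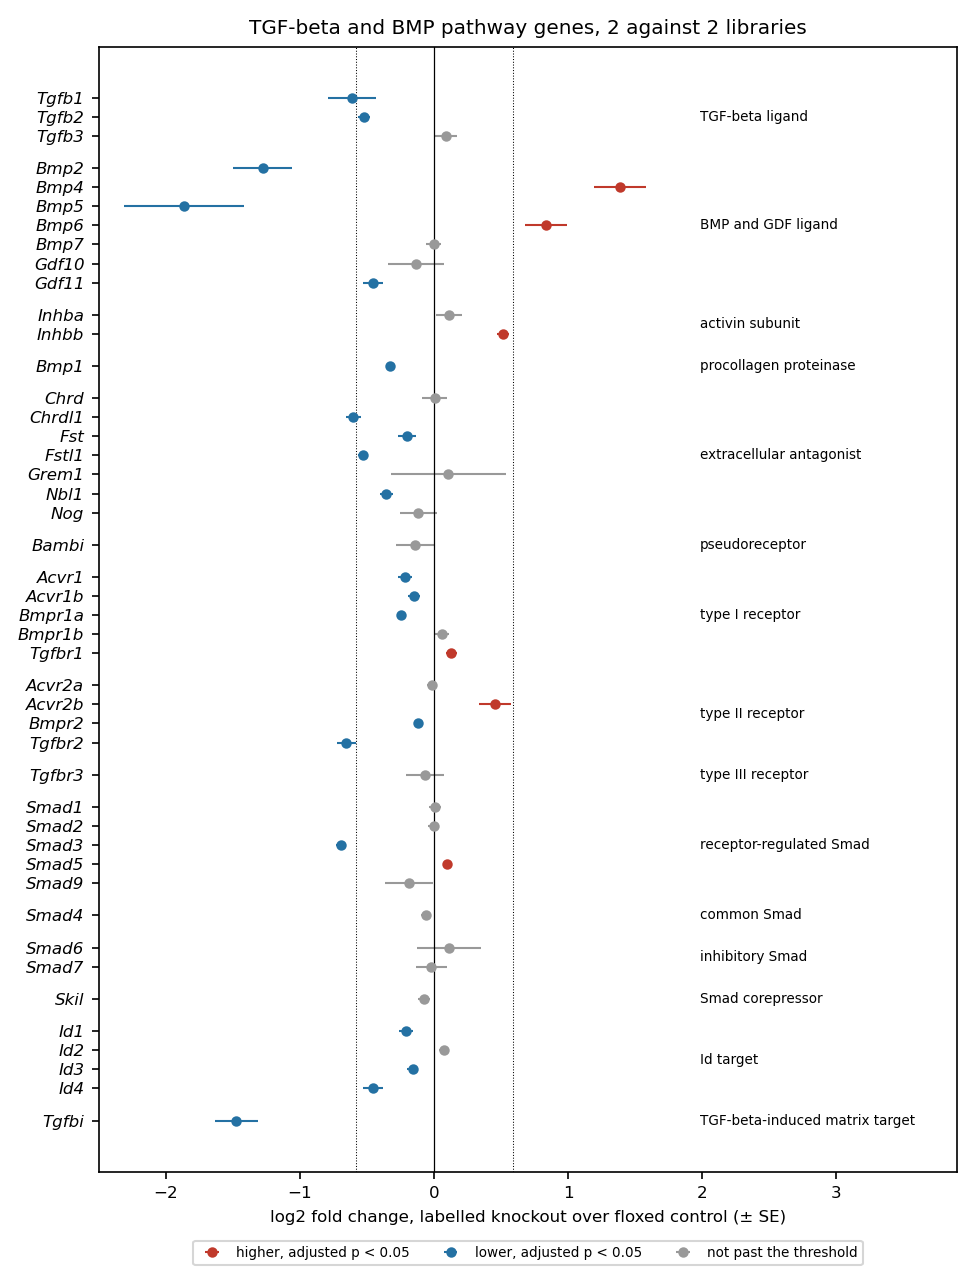
Log2 fold change of each of the 45 pathway genes, libraries labelled knockout over floxed control, with bars of 1 SE and dotted lines at a 1.5-fold change, grouped by role from ligands at the top to targets at the bottom. The widest spread is among the BMP ligands, where Bmp4 (1.39) and Bmp5 (-1.87) lie at opposite ends, while most receptors and Smads lie close to 0.

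Promoter sequences are shown for 4 genes that passed the edgeR test: the ligand gene Bmp4, the transducer gene Smad3, the matrix target Tgfbi and the BMP target Id3. The Id3 change was small (log2 fold change -0.16), and its call was lost under 2 of 12 alternatives. RefSeq windows on GRCm38.p6, from 250 bases before to 50 after a transcript start, were at hand for 31 of the 45 genes. Each is printed 5′ to 3′ on the gene's strand, and capitals mark the motifs GGCGCC and CAGAC (or its reverse complement GTCTG), which are short core letters of elements that Smads are known to bind. The Bmp4 window is chr14:46390620-46390919 (minus strand), the Smad3 window chr9:63757945-63758244 (minus strand), the Tgfbi window chr13:56609336-56609635 (plus strand) and the Id3 window chr4:136143572-136143871 (plus strand).
Bmp4: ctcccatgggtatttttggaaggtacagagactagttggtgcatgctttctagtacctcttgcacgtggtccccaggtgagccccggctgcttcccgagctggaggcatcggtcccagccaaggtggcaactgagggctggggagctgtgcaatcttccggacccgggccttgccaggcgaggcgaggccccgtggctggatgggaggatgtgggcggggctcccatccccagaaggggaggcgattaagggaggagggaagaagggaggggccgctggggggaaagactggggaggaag
Smad3: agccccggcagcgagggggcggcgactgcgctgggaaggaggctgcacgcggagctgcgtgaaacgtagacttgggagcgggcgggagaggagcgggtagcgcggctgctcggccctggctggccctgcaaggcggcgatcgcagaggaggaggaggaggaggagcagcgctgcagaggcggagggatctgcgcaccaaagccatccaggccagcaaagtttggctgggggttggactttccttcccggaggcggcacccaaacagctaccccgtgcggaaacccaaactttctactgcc
Tgfbi: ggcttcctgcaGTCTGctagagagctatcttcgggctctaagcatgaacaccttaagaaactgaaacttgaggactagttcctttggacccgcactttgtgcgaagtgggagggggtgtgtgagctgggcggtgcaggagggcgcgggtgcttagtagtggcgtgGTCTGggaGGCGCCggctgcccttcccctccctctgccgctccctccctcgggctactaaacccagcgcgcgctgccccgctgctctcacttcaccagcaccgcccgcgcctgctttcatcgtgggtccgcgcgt
Id3: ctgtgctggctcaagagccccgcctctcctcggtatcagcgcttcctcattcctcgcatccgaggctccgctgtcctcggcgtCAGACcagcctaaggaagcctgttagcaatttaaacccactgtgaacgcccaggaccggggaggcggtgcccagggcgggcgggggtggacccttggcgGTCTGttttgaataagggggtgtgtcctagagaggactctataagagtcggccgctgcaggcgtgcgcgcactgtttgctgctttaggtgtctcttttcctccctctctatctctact
The Tgfbi window holds GGCGCC starting 77 bases before the transcript start and CAGAC matches starting 239 and 85 bases before it, and the Id3 window holds CAGAC matches starting 167 and 68 bases before the start. Neither motif is in the Bmp4 or Smad3 window. Over all 32851 windows of this length, 11.9% hold GGCGCC and 49.6% hold CAGAC on either strand, so a CAGAC match is common. Over the 36 windows of pathway genes the shares were 38.9% and 44.4%, and these windows were richer in G and C, at 66.7% on average against 53.8% for all windows. The motifs do not overlap each other in the windows printed, and a match is only a match of letters.

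The TGF-beta ligand genes did not move together. Tgfb2, which encodes the isoform most abundant here, had 44.2 and 44.8 CPM in libraries labelled knockout, against 63.9 and 63.7 CPM in floxed control libraries. The groups lay well apart, and the log2 fold change was -0.52 ± 0.04 (SE; edgeR adjusted p = 4.4e-12). Tgfb1, the isoform known for its actions on immune and vascular cells, was scarcer, at 2.79 and 2.31 CPM in libraries labelled knockout, against 3.78 and 4.04 CPM in floxed control libraries. Its change was -0.61 ± 0.18 (adjusted p = 0.00608), a call lost without knockout-labelled replicate 2 (-0.49, adjusted p = 0.0961) and with DESeq2 (adjusted p = 0.110, the highest in a range from 0.00488 over 12 alternatives). Tgfb3 had 14.4 and 14.1 CPM in libraries labelled knockout and 13.1 and 13.7 CPM in floxed control libraries, and did not pass (0.09 ± 0.08, adjusted p = 0.451). Per length, in transcripts-per-million (TPM), the summed ligand level was 48.4 ± 0.408 in libraries labelled knockout and 63.2 ± 0.200 in floxed control libraries (SD, n = 2 each). Tgfb2 made up 61.3% and 62.6% of it in libraries labelled knockout, against 70.4% and 69.4% in floxed control libraries, and Tgfb3 made up 34.2% and 33.7%, against 24.8% and 25.5%.

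BMP ligand genes changed in both directions. Of the 7 BMP and GDF ligand genes 4, all of them BMP genes, changed by more than 1.5-fold, against 5.75% of all genes. Bmp4, a dorsal midline morphogen, had 3.96 and 4.12 CPM in libraries labelled knockout, against 1.48 and 1.596 CPM in floxed control libraries, a 2.62-fold difference (log2 fold change 1.39 ± 0.20, edgeR adjusted p = 3.3e-07). Bmp6, from the same subgroup as Bmp5 and Bmp7, had 5.02 and 5.81 CPM in libraries labelled knockout, against 3.29 and 2.77 CPM in floxed control libraries (0.84 ± 0.16, adjusted p = 5.5e-05). For both genes the lower library labelled knockout lay above the higher control library, where 64.9% of all genes had no overlap between the groups. Bmp2, the closest paralog of Bmp4, went the other way, with 1.06 and 1.85 CPM in libraries labelled knockout, against 3.25 and 3.73 CPM in floxed control libraries (-1.28 ± 0.22, adjusted p = 1.2e-05). Its libraries labelled knockout differed from each other more than the control libraries did, and the change was -0.92 without knockout-labelled replicate 1 and -1.72 without knockout-labelled replicate 2, each past the threshold. Bmp5 was the scarcest of the 5 BMP genes among the 45, with 11 and 3 counts in libraries labelled knockout, against 28 and 24 counts in floxed control libraries (-1.87 ± 0.45, adjusted p = 0.00109). Without knockout-labelled replicate 2 its change was -1.28 and missed the threshold (adjusted p = 0.0514), and without knockout-labelled replicate 1 it was -3.00 (adjusted p = 3.4e-04); the lowest and highest adjusted p over 11 alternatives were these same values. Of the exonic length of Bmp5, 46.7% lies opposite exons of the gene Gm26903 on the other strand, and reads of the pair cannot be told apart without knowing the strand setting used in counting.

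Bmp7 was by far the most abundant BMP ligand gene, and its libraries overlapped. It had 38.3 and 36.8 CPM in libraries labelled knockout, against 38.3 and 37.0 CPM in floxed control libraries, and its ratio had a 95% interval from 0.926 to 1.07. Per length, the 5 BMP genes summed to 50.8 ± 0.0651 TPM in libraries labelled knockout and 48.4 ± 1.14 TPM in floxed control libraries (SD, n = 2 each), a ratio of 1.05, so the total differed little while its make-up differed. Bmp7 supplied 73.4% and 70.3% of the sum in libraries labelled knockout, against 78.1% and 77.5% in floxed control libraries. Bmp4 supplied 13.6% and 14.0%, against 5.37% and 5.97%, and Bmp6 9.93% and 11.4%, against 6.91% and 5.97%. Bmp2 supplied 2.30% and 3.98% in libraries labelled knockout, against 7.49% and 8.81% in floxed control libraries.

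Markers of choroid plexus, an epithelium of the dorsal midline that makes several BMPs, moved in the same libraries. Of 12 listed marker genes 10 were higher in libraries labelled knockout and the other 2 did not pass. Their summed level was 1473 to 1486 CPM in libraries labelled knockout and 263 to 270 CPM in floxed control libraries, most of it the thyroid hormone carrier gene Ttr (1271 and 1290 CPM, against 178 and 186 CPM). No listed marker was at 0 in both libraries of a group. Enpp2, which encodes the secreted enzyme autotaxin, had 109 and 107 CPM in libraries labelled knockout, against 47.7 and 47.1 CPM in floxed control libraries. The part of these markers in the Bmp4 and Bmp6 differences was not tested.

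**Figure D2:**
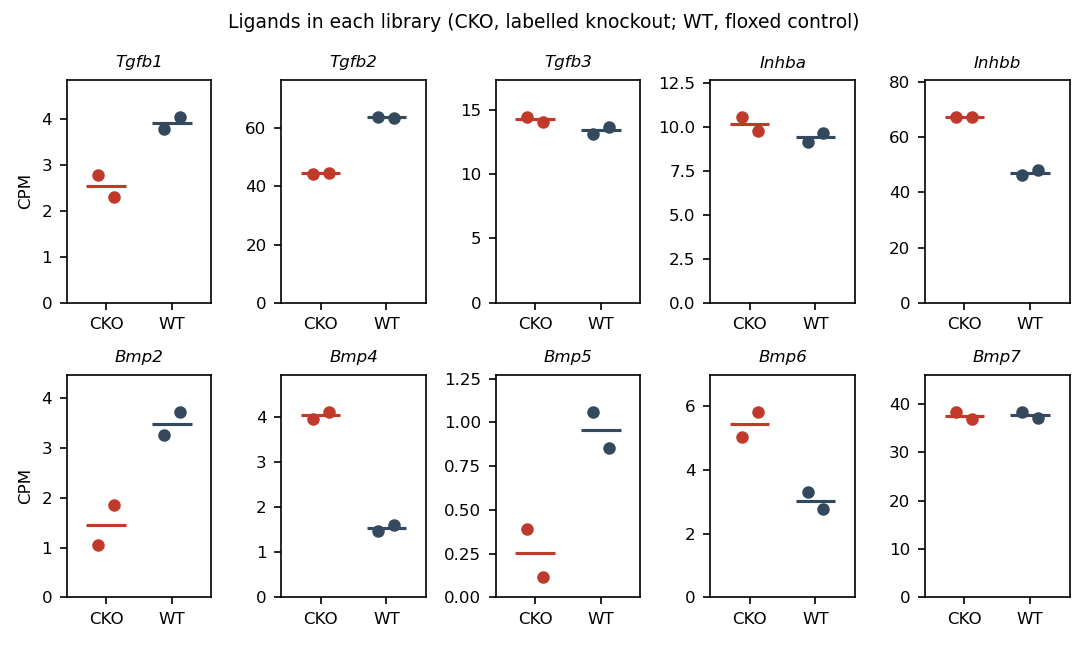
Level in counts-per-million of TGF-beta, activin and BMP ligand genes, 1 point per library and a line at the mean of each group, each axis starting at 0. Bmp4, Bmp6 and Inhbb lie higher in libraries labelled knockout, Tgfb1, Tgfb2, Bmp2 and Bmp5 lie lower, and Bmp7 overlaps.

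**Figure D3:**
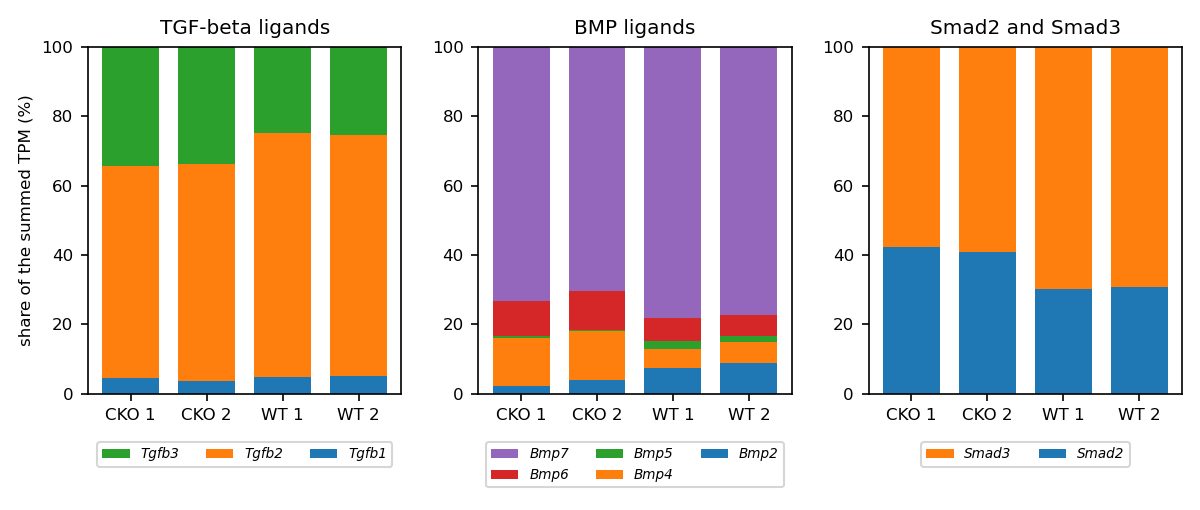
Share of the summed per-length level (TPM) that each gene supplies, for TGF-beta ligands, BMP ligands and the pair Smad2 and Smad3, 1 bar per library. Bmp7 supplies 70.3% to 78.1% of the BMP sum, and the Smad3 share is 57.8% and 59.2% in libraries labelled knockout, against 69.7% and 69.3% in floxed control libraries.

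Among the remaining ligand genes, the activin subunit gene Inhbb was higher and Gdf11 lower. Inhbb, whose product forms activin B, had 67.3 and 67.3 CPM in libraries labelled knockout, against 46.2 and 48.2 CPM in floxed control libraries (0.51 ± 0.04, edgeR adjusted p = 5.0e-12). The other activin subunit gene, Inhba, had 10.6 and 9.77 CPM in libraries labelled knockout and 9.16 and 9.69 CPM in floxed control libraries (0.11 ± 0.10, adjusted p = 0.429). Inhbb supplied 90.5% and 91.2% of the per-length sum of both subunit genes in libraries labelled knockout, against 88.3% and 88.2% in floxed control libraries. Gdf11, a ligand that restrains neuron production in several sensory tissues of the mouse, had 16.3 and 15.3 CPM in libraries labelled knockout, against 22.2 and 21.1 CPM in floxed control libraries (-0.45 ± 0.07, adjusted p = 5.3e-06). Gdf10 overlapped, at 2.51 and 2.08 CPM in libraries labelled knockout and 2.12 and 2.91 CPM in floxed control libraries. Bmp1 is not a ligand despite its name but a metalloproteinase that trims procollagens and cleaves chordin. It had 128 and 127 CPM in libraries labelled knockout, against 158 and 161 CPM in floxed control libraries (-0.33 ± 0.03, adjusted p = 8.4e-11).

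Of the 7 extracellular antagonist genes, 4 were lower in libraries labelled knockout (18.1% of all genes were lower) and the other 3 did not pass. Fstl1, a follistatin-like glycoprotein gene expressed by glia and mesenchyme, had 122 and 121 CPM in libraries labelled knockout, against 179 and 173 CPM in floxed control libraries (-0.53 ± 0.03, edgeR adjusted p = 1.4e-16). The X-linked gene Chrdl1, which encodes a chordin-like BMP antagonist secreted by astrocytes, had 32.2 and 29.3 CPM in libraries labelled knockout, against 47.99 and 45.76 CPM in floxed control libraries (-0.60 ± 0.06, adjusted p = 1.4e-11). Nbl1, a DAN-family antagonist gene, had 46.4 and 48.6 CPM, against 57.9 and 63.4 CPM in floxed control libraries (-0.36 ± 0.05, adjusted p = 1.6e-07). These 3 genes had the largest changes of the antagonists. Of the 7 antagonist genes 4, these 3 among them, had no overlap between the groups (57.1%, against 64.9% of all genes). Fst, the activin trap follistatin, differed less, at 20.1 and 20.2 CPM in libraries labelled knockout and 22.9 and 23.3 CPM in floxed control libraries (-0.20 ± 0.07, adjusted p = 0.0201). The Fst call was lost with DESeq2 (adjusted p = 0.209, the highest in a range from 0.0167 over 12 alternatives) and without control replicate 2 (adjusted p = 0.0880), knockout-labelled replicate 1 (0.0893) or knockout-labelled replicate 2 (0.0662), its change staying between -0.21 and -0.17.

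The classical BMP traps overlapped between the groups. Nog, encoding noggin, had 4.81 and 6.34 CPM in libraries labelled knockout and 5.68 and 6.35 CPM in floxed control libraries, and its ratio had a 95% interval from 0.758 to 1.12. Chrd, encoding chordin, had 11.4 and 10.8 CPM in libraries labelled knockout and 11.7 and 10.5 CPM in floxed control libraries, with an interval from 0.876 to 1.15. Grem1 was close to the limit of detection, with 16 and 14 counts in libraries labelled knockout and 8 and 20 counts in floxed control libraries. Bambi, a decoy receptor gene without a kinase domain, had 4.49 and 4.35 CPM in libraries labelled knockout and 4.66 and 5.07 CPM in floxed control libraries and did not pass (adjusted p = 0.499). Per length, the 7 antagonist genes summed to 243 ± 3.35 TPM in libraries labelled knockout and 333 ± 2.62 TPM in floxed control libraries (SD, n = 2 each), a ratio of 0.729, and Fstl1 and Nbl1 supplied most of both sums.

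Astrocyte markers fell in the same libraries. Of 8 listed 6 were lower and 1 higher, and their sum was 2190 to 2196 CPM in libraries labelled knockout and 3147 to 3167 CPM in floxed control libraries, with none at 0. Gfap, the astrocyte intermediate filament gene, had 327 and 322 CPM in libraries labelled knockout, against 859 and 879 CPM in floxed control libraries, and Sparcl1 had 615 and 618 CPM, against 834 and 836 CPM. Whether this bears on Fstl1, Chrdl1 or other genes that glia express was not tested.

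Of the 10 receptor genes 2 were higher and 5 lower, where 15.1% of all genes were higher and 18.1% lower. A single receptor gene, Tgfbr2, changed by more than 1.5-fold, as did 5.75% of all genes, so neither that share nor the higher one stood far from the background. Tgfbr2 encodes the type II receptor that binds TGF-beta. It had 15.4 and 14.8 CPM in libraries labelled knockout, against 22.6 and 25.0 CPM in floxed control libraries (-0.65 ± 0.07, edgeR adjusted p = 3.3e-09). Its type I partner gene Tgfbr1 had 70.8 and 70.5 CPM in libraries labelled knockout and 63.6 and 65.7 CPM in floxed control libraries (0.13 ± 0.04, adjusted p = 0.0156). The Tgfbr1 call was lost with DESeq2 (adjusted p = 0.163, the highest in a range from 0.00309 over 12 alternatives), without control replicate 1 (0.10, adjusted p = 0.130) and without knockout-labelled replicate 1 (0.12, adjusted p = 0.0693). The co-receptor gene Tgfbr3 had 4.49 and 5.58 CPM in libraries labelled knockout and 5.64 and 4.90 CPM in floxed control libraries, so its groups overlapped.

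BMP receptor genes differed by less. Bmpr1a, the main BMP type I receptor gene here, had 167 and 165 CPM in libraries labelled knockout, against 202 and 192 CPM in floxed control libraries (-0.24 ± 0.03, edgeR adjusted p = 3.0e-08). Acvr1, a type I receptor gene for BMPs, had 36.8 and 34.5 CPM in libraries labelled knockout, against 41.9 and 41.2 CPM in floxed control libraries (-0.22 ± 0.05, adjusted p = 0.00130). Bmpr1b overlapped, at 54.98 and 50.23 CPM in libraries labelled knockout and 52.6 and 48.6 CPM in floxed control libraries. Bmpr2, the BMP type II receptor gene, had 205 and 203 CPM in libraries labelled knockout, against 226 and 216 CPM in floxed control libraries (-0.12 ± 0.03, adjusted p = 0.00168), a call lost without control replicate 1 (-0.08, adjusted p = 0.0571, the highest in a range from 8.5e-05 over 12 alternatives). Per length, the 3 BMP type I receptor genes summed to 166 ± 4.75 TPM in libraries labelled knockout and 193 ± 7.61 TPM in floxed control libraries (SD, n = 2 each), of which Bmpr1a supplied 61.0% and 62.6%, against 64.5% and 64.5%.

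Activin receptor genes moved in different directions. Acvr2b, a type II receptor gene, had 8.59 and 8.04 CPM in libraries labelled knockout, against 5.98 and 6.17 CPM in floxed control libraries (0.45 ± 0.12, edgeR adjusted p = 0.00229). Acvr2a, its more abundant paralog, had 83.9 and 87.0 CPM in libraries labelled knockout and 86.8 and 86.0 CPM in floxed control libraries, with a 95% interval of the ratio from 0.938 to 1.04. The type I receptor gene Acvr1b had 57.6 and 62.1 CPM in libraries labelled knockout, against 65.6 and 67.0 CPM in floxed control libraries (-0.15 ± 0.04, adjusted p = 0.00824). The Acvr2b call was lost with DESeq2 (adjusted p = 0.0663, the highest in a range from 0.0011 over 12 alternatives). The Acvr1b call was lost with DESeq2 (adjusted p = 0.121) and without knockout-labelled replicate 1 (-0.09, adjusted p = 0.205, the highest in a range from 0.00142 over 12 alternatives).

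**Figure D4:**
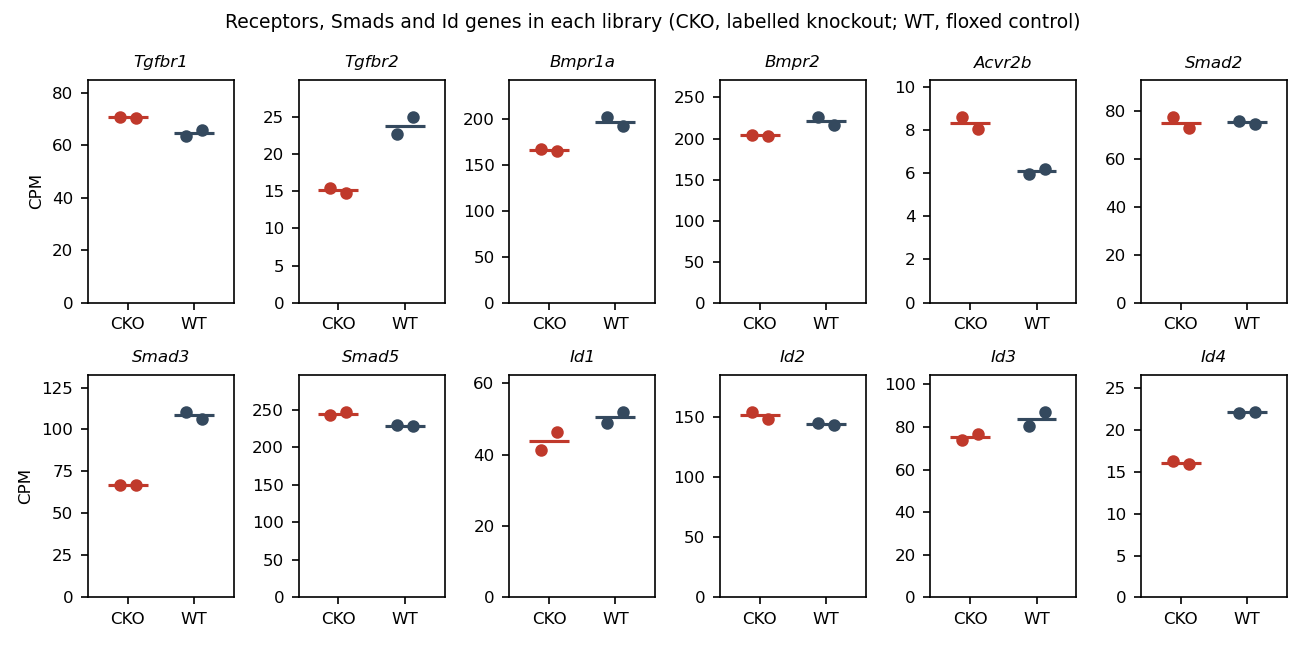
Level in counts-per-million of receptor, Smad and Id genes, 1 point per library and a line at the mean of each group, each axis starting at 0. Smad3 and Tgfbr2 are the genes furthest apart between the groups, Smad2 overlaps, and Id1, Id3 and Id4 lie lower in libraries labelled knockout.

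Of the Smad genes, Smad3 stood apart from its close paralog Smad2. Smad3, which binds DNA directly and carries TGF-beta and activin signals, had 67.2 and 66.7 CPM in libraries labelled knockout, against 111 and 106 CPM in floxed control libraries. It lies on chromosome 9 from 63646767 to 63757994 (GRCm38, minus strand). Its level was 1.62-fold lower in libraries labelled knockout (log2 fold change -0.69 ± 0.04, edgeR adjusted p = 1.1e-17), and over 12 alternatives the change ran from -0.72 to -0.67, each past the threshold. Smad2 had 77.5 and 72.8 CPM in libraries labelled knockout and 76.0 and 74.7 CPM in floxed control libraries, and the 95% interval of its ratio ran from 0.943 to 1.06, outside the interval of the Smad3 ratio (0.585 to 0.652). Per length, the pair summed to 80.6 ± 1.897 TPM in libraries labelled knockout and 113 ± 3.06 TPM in floxed control libraries (SD, n = 2 each), with Smad3 the larger part in each library.

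The Smads of the BMP branch were close to even between the groups. Smad5, the most abundant, had 242 and 247 CPM in libraries labelled knockout, against 230 and 228 CPM in floxed control libraries (0.10 ± 0.03, edgeR adjusted p = 0.00557), a call lost with DESeq2 (adjusted p = 0.0554) and without knockout-labelled replicate 2 (0.08, adjusted p = 0.0715, the highest in a range from 4.3e-04 over 12 alternatives). Smad1 had 66.5 and 65.7 CPM in libraries labelled knockout and 62.9 and 68.6 CPM in floxed control libraries. Smad9 had 3.25 and 2.81 CPM in libraries labelled knockout and 3.78 and 3.16 CPM in floxed control libraries. Both overlapped between the groups. The 3 genes summed to 172 ± 0.610 TPM in libraries labelled knockout and 168 ± 0.699 TPM in floxed control libraries (SD, n = 2 each), a ratio of 1.02, against 0.714 for Smad2 and Smad3.

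The shared Smad4 and the inhibitory Smad6 and Smad7 did not pass the edgeR test, with unadjusted p of 0.128, 0.640 and 0.847, or any of the 12 alternatives. Smad4, partner of both branches, had 95.7 and 90.0 CPM in libraries labelled knockout and 95.6 and 97.9 CPM in floxed control libraries, with a 95% interval of the ratio from 0.910 to 1.01. Smad7, an inhibitory Smad gene that TGF-beta itself induces, had 7.78 and 8.85 CPM in libraries labelled knockout and 7.53 and 9.26 CPM in floxed control libraries, with an interval from 0.838 to 1.16. Smad6, which BMPs induce, was scarce, at 2.16 and 1.54 CPM in libraries labelled knockout and 1.85 and 1.596 CPM in floxed control libraries, with an interval from 0.774 to 1.51. Skil, encoding the corepressor SnoN, had 64.4 and 62.3 CPM in libraries labelled knockout and 68.6 and 65.0 CPM in floxed control libraries (-0.07 ± 0.04, edgeR adjusted p = 0.189).

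Among the Id genes, which encode helix-loop-helix proteins that hold back differentiation factors, 3 of 4 were lower in libraries labelled knockout, against 18.1% of all genes, and the Id1 and Id3 calls were small and lost under some alternatives. Id4 changed most, with 16.2 and 15.9 CPM in libraries labelled knockout, against 22.0 and 22.1 CPM in floxed control libraries (-0.46 ± 0.07, edgeR adjusted p = 3.0e-06). Id1 had 41.2 and 46.3 CPM in libraries labelled knockout, against 48.9 and 52.0 CPM in floxed control libraries (-0.21 ± 0.05, adjusted p = 0.00181). Id3, whose promoter window is printed above, had 73.9 and 76.6 CPM in libraries labelled knockout, against 80.7 and 87.1 CPM in floxed control libraries (-0.16 ± 0.04, adjusted p = 0.00248). Id2, the most abundant of the family, lay slightly higher without passing, at 155 and 149 CPM in libraries labelled knockout and 145 and 144 CPM in floxed control libraries (0.07 ± 0.03, adjusted p = 0.0818), and it passed with upper quartile scaling (0.10, adjusted p = 0.0145, the lowest in a range up to 0.485 over 12 alternatives). The Id1 call was lost with DESeq2 (adjusted p = 0.0544) and without knockout-labelled replicate 1 (-0.12, adjusted p = 0.124, the highest in a range from 2.0e-05). The Id3 call was lost with DESeq2 (adjusted p = 0.0570) and without control replicate 2 (-0.10, adjusted p = 0.110, the highest in a range from 1.0e-04). Per length the family summed to 571 ± 8.49 TPM in libraries labelled knockout and 623 ± 13.1 TPM in floxed control libraries (SD, n = 2 each), a ratio of 0.916.

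Tgfbi, a secreted matrix protein gene named for its induction by TGF-beta, had the lowest log2 fold change of the 45 genes after Bmp5. It had 2.16 and 2.65 CPM in libraries labelled knockout, against 7.00 and 6.35 CPM in floxed control libraries, 2.78-fold lower in libraries labelled knockout (log2 fold change -1.48 ± 0.16, edgeR adjusted p = 8.7e-10). The change ran from -1.63 to -1.33 over 12 alternatives, each past the threshold. Tgfbi is also made by fibroblasts and macrophages, and of their listed markers most of those that passed were lower in the same libraries. Of 12 fibroblast and meningeal markers 7 were lower, 1 was higher and 4 did not pass. The higher marker was Ogn (7.32 and 7.00 CPM in libraries labelled knockout, against 1.63 and 1.77 CPM in floxed control libraries). The list summed to 57.1 to 60.7 CPM in libraries labelled knockout and 175 to 178 CPM in floxed control libraries. It was led by the fibrillar collagen genes Col3a1 (8.56 and 9.42 CPM, against 67.4 and 64.5 CPM) and Col1a1 (11.8 and 13.5 CPM, against 52.9 and 51.3 CPM). Of 12 microglial and macrophage markers 7 could be tested and 5 of these were lower, with sums of 6.15 to 7.14 CPM in libraries labelled knockout and 10.6 to 11.7 CPM in floxed control libraries. By level the list was led by Cd68 (3.85 and 3.58 CPM, against 3.97 and 3.83 CPM), which did not pass and overlapped between the groups, and P2ry12 (0.884 and 0.769 CPM, against 1.32 and 1.77 CPM). The P2ry12 call (-0.91, edgeR adjusted p = 0.0145) was lost with DESeq2 (adjusted p = 0.177), without control replicate 2 (-0.67, adjusted p = 0.202, the highest in a range from 0.00973 over 12 alternatives) and without knockout-labelled replicate 2 (-0.81, adjusted p = 0.0973). No marker of either list was at 0 in both libraries of a group, and their part in the Tgfbi difference was not tested.

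**Figure D5:**
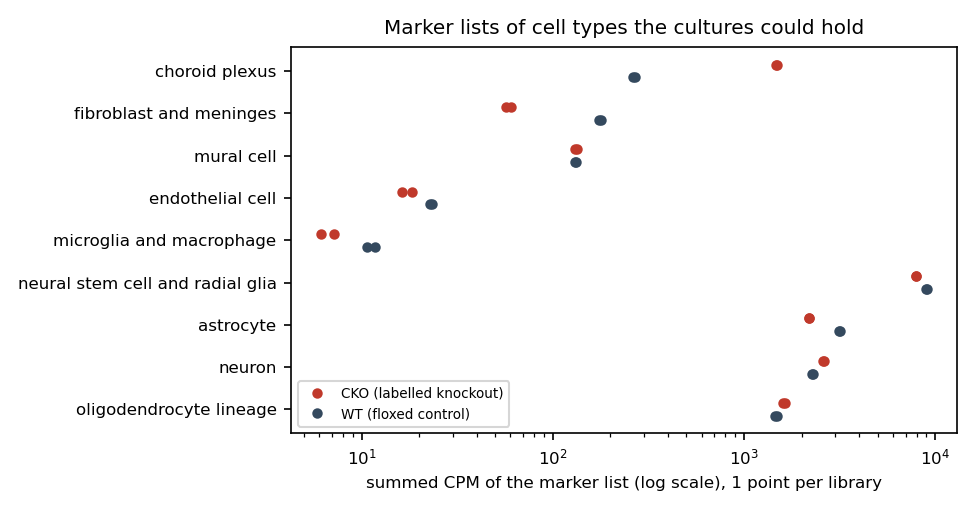
Summed counts-per-million of marker lists for cell types that cortical cultures could hold, 1 point per library on a log axis. Choroid plexus markers lie 1473 to 1486 CPM in libraries labelled knockout, against 263 to 270 CPM in floxed control libraries, and fibroblast and meningeal, astrocyte, and microglial lists lie lower in libraries labelled knockout.

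The sums of the other marker lists differed less than those of choroid plexus and fibroblast markers, though single genes in them changed. Mural cell markers summed to 131 to 133 CPM in libraries labelled knockout and 131 CPM in both floxed control libraries, with 1 of 8 tested higher and 3 lower, all 3 by more than 1.5-fold, and most of the sum was Notch3 (103 and 106 CPM, against 99.9 and 101 CPM). Endothelial markers summed to 16.2 to 18.4 CPM in libraries labelled knockout and 22.8 to 23.2 CPM in floxed control libraries, with 2 of 9 tested higher and 2 lower, all 4 by more than 1.5-fold, among them the VEGF receptor genes Flt1 (4.14 and 4.31 CPM, against 11.3 and 12.6 CPM) and Kdr (3.96 and 4.69 CPM, against 2.27 and 2.70 CPM). Neuronal markers summed to 2597 to 2613 CPM in libraries labelled knockout and 2281 to 2285 CPM in floxed control libraries, with 5 of 8 higher and the other 3 not past the threshold, led by Map2 (857 CPM in both, against 767 and 765 CPM) and Tubb3 (479 and 491 CPM, against 402 and 413 CPM). Oligodendrocyte lineage markers summed to 1601 to 1640 CPM in libraries labelled knockout and 1445 to 1489 CPM in floxed control libraries, with 5 of 9 higher and 1 lower. Olig1 had 841 and 870 CPM in libraries labelled knockout, against 746 and 773 CPM in floxed control libraries, while Olig2 had 350 and 357 CPM, against 382 and 398 CPM. In the neural stem cell and radial glial list 3 of 12 were higher and 5 lower, with Vim at 2411 and 2419 CPM in libraries labelled knockout, against 3001 and 3002 CPM in floxed control libraries, and Ptprz1 at 1502 and 1474 CPM, against 1553 and 1500 CPM.

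A further 82 genes of the pathway, listed by role, gave 61 that could be tested. Of these 22 passed (36.1%, against 33.1% of all genes). There were 8 higher in libraries labelled knockout (13.1%, against 15.1% of all genes) and 14 lower (22.95%, against 18.1%). DESeq2 gave 5 higher and 11 lower, against 1055 and 1642 of the 15012 genes tested. The lists by role are short, and the same 15.1% and 18.1% of all genes stand beside their counts. Intracellular regulators such as the ubiquitin ligase genes Smurf1 and Smurf2 gave 1 higher and 1 lower of 18, extracellular regulators 3 higher and 7 lower of 18, and target genes 2 higher and 5 lower of 12. Of 8 further ligand genes 1 was higher and 1 lower, and of 5 receptor and co-receptor genes 1 was higher.

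Genes of the latent TGF-beta binding protein family, some members of which store TGF-beta in the matrix, moved both ways. Ltbp1 had 34.7 and 37.5 CPM in libraries labelled knockout, against 70.5 and 70.6 CPM in floxed control libraries (-0.97 ± 0.05, edgeR adjusted p = 3.6e-19). Ltbp3 had 146 and 152 CPM in libraries labelled knockout, against 188 and 196 CPM in floxed control libraries (-0.37 ± 0.03, adjusted p = 2.8e-12). Ltbp4 was higher, at 81.7 and 84.5 CPM in libraries labelled knockout, against 71.8 and 73.0 CPM in floxed control libraries (0.20 ± 0.04, adjusted p = 1.1e-04). Ltbp2 was scarce but also higher, at 1.10 and 1.11 CPM, against 0.416 and 0.426 CPM in floxed control libraries (1.38 ± 0.36, adjusted p = 0.00288), a call lost with DESeq2 (adjusted p = 0.0753, the highest in a range from 0.00209 over 12 alternatives). Itgav, whose integrin chain takes part in releasing latent TGF-beta, had 219 and 212 CPM in libraries labelled knockout, against 271 and 269 CPM in floxed control libraries (-0.33 ± 0.03, adjusted p = 2.8e-12). The BMP antagonist gene Sostdc1, which choroid plexus expresses strongly, had 14.0 and 13.5 CPM in libraries labelled knockout, against 1.78 and 2.06 CPM in floxed control libraries (2.83 ± 0.14, adjusted p = 2.1e-19).

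Most further ligand, receptor and intracellular regulator genes did not pass. Those called were 2 of 8, 1 of 5 and 2 of 18, against 33.1% of all genes, and they went in both directions. The stress-induced ligand gene Gdf15 had 7.46 and 8.499 CPM in libraries labelled knockout, against 10.8 and 11.7 CPM in floxed control libraries (-0.50 ± 0.10, edgeR adjusted p = 2.1e-04). Gdf9, best known from oocytes, had 3.22 and 2.81 CPM in libraries labelled knockout, against 1.70 and 2.199 CPM in floxed control libraries (0.62 ± 0.20, adjusted p = 0.0152). The Gdf9 call was lost with DESeq2 (adjusted p = 0.178, the highest in a range from 0.0104 over 12 alternatives), without control replicate 1 (0.46, adjusted p = 0.169) and without knockout-labelled replicate 1 (0.52, adjusted p = 0.152). Rgma, a BMP co-receptor gene that also repels axons, had 226 and 226 CPM in libraries labelled knockout, against 187 and 196 CPM in floxed control libraries (0.24 ± 0.03, adjusted p = 1.9e-08). The Smad corepressor gene Tgif1 had 22.0 and 22.4 CPM in libraries labelled knockout, against 28.1 and 28.8 CPM in floxed control libraries (-0.36 ± 0.06, adjusted p = 1.7e-05). Its paralog Tgif2 had 42.8 and 40.3 CPM in libraries labelled knockout, against 40.0 and 35.0 CPM in floxed control libraries (0.15 ± 0.06, adjusted p = 0.0367). The Tgif2 call was lost with DESeq2 (adjusted p = 0.273), with no low-count filter (0.133), without control replicate 2 (0.06, adjusted p = 0.576, the highest in a range from 0.00119 over 12 alternatives) and without knockout-labelled replicate 1 (0.11, adjusted p = 0.258).

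Genes known as targets of the pathway, most of which other signals also control, went both ways. Junb, an immediate early gene that TGF-beta and growth factors induce, had 46.0 and 46.8 CPM in libraries labelled knockout, against 106 and 111 CPM in floxed control libraries (-1.22 ± 0.04, edgeR adjusted p = 2.4e-24). Cdkn2b, the cyclin-dependent kinase inhibitor gene through which TGF-beta arrests epithelial cells, had 18.8 and 19.3 CPM in libraries labelled knockout, against 35.6 and 39.7 CPM in floxed control libraries (-0.99 ± 0.07, adjusted p = 1.7e-15). Atoh8, a target of BMP signalling in endothelium, had 1.10 and 0.731 CPM in libraries labelled knockout, against 2.69 and 3.30 CPM in floxed control libraries (-1.70 ± 0.25, adjusted p = 6.3e-07). The BMP target and dorsal midline gene Msx1 was higher, at 2.02 and 2.58 CPM in libraries labelled knockout, against 0.606 and 0.816 CPM in floxed control libraries (1.67 ± 0.28, adjusted p = 7.1e-06). Acta2, a smooth muscle actin gene that TGF-beta induces and that is also in the mural cell list, had 11.9 and 11.6 CPM in libraries labelled knockout, against 8.67 and 7.24 CPM in floxed control libraries (0.57 ± 0.10, adjusted p = 3.3e-05).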

How the data were processed

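The deposited tables hold raw counts of reads per gene, 1 table per library, and no normalization by the authors. Libraries were poly(A)-selected, strand-marked with dUTP and sequenced as paired 150-base reads, per the labels' protocols. HISAT2 2.2.1, HTSeq 0.12.4, DESeq2 1.26.0 and the mouse build mm10 are named in the submitters' processing notes. The annotation and the strand setting of the counting step are both not given in the sources used here. Between 25.2% and 26.1% of the counts in each library stood on summary lines for reads not assigned to a gene, and were left out.

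Counts were tested with edgeR 4.0.16 (R 4.3.3), using its default filter on low counts, trimmed mean of M values scaling, the quasi-likelihood test and Benjamini-Hochberg adjustment over all genes tested, with a threshold of 0.05. All adjusted p-values in the text are from this fit unless another tool is named. Ratio intervals are 95% intervals from the fitted SE. With 2 libraries against 2, an exact two-sided permutation test cannot go below 0.3333, so none is given for single values. TPM used exon-union lengths of GENCODE M21 (GRCm38), which 95.7% of symbols had, and promoters came from RefSeq on GRCm38.p6. The scripts were tested on simulated data. Alternatives were other scalings, no filter and a stricter one, DESeq2 1.42.0, limma 3.58.1 voom, the older quasi-likelihood fit, a replicate block and leaving out each library.

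The pathway members and all lists were chosen with earlier results of these data known. Named genes were the 45 members, in each further role list up to 3 genes per direction with the smallest p among called genes whose groups did not overlap, the 2 most abundant tested genes of each marker list, and the genes used to check the labels. Ogn was named in addition, as the only fibroblast and meningeal marker that was higher. Replicates of a group differed by more than counting noise, so all 4 libraries were kept. Chi-square per gene was 1.958 between the floxed control replicates and 2.202 between the knockout-labelled replicates. Between libraries of different groups it was 20.37 to 21.21. The common coefficient of variation beyond counting noise was 0.0242 in the edgeR fit. These values cannot tell separate cultures from technical replicates, since the labels do not say which they are.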

Additional observations from a re-analysis of the deposited data

How the results depend on the processing

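Of the 26 pathway genes called, 16 were called under all 12 alternatives and 10 lost the call under at least 1 of them, as given with each gene. DESeq2 gave fewer calls: 3 pathway genes higher, 5 further pathway genes higher, and 1055 higher and 1642 lower genes in all, against 2263 and 2711 in edgeR; the cause was not tested. Leaving out 1 library at a time gave 5 to 6 pathway genes higher and 17 to 19 lower, 7 to 9 further pathway genes higher and 12 to 13 lower, and 1738 to 1843 genes higher and 2249 to 2442 lower in all. Upper quartile scaling moved the median log2 fold change of all genes to 0.031, with 2939 genes higher and 2288 lower.

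The labels do not say whether the replicate numbers pair the libraries. The deviations of same-numbered libraries from their group means correlated at -0.02. With 2 libraries per group this value is the same for both numbers by construction, and it cannot exclude pairing. With the replicate number as a block, 6 pathway genes were higher and 20 lower, 8 further pathway genes were higher and 15 lower, and 2443 genes were higher and 2881 lower in all.

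Sign changes occurred in genes that did not pass. Under upper quartile scaling Acvr2a came to 0.01, and Prrc2a, Bmp7 and Smad2 to 0.02. Leaving out 1 library gave these ranges of log2 fold change: Gdf10 -0.34 to 0.12, Nog -0.32 to 0.07, Grem1 -0.36 to 0.86, Tgfbr3 -0.23 to 0.08, Bmpr1b -0.01 to 0.12, Acvr2a -0.04 to 0.01, Smad1 -0.05 to 0.07, Smad6 -0.16 to 0.32, Smad7 -0.16 to 0.14, Chrd -0.08 to 0.09, Bmp7 -0.03 to 0.02, Smad2 -0.05 to 0.04 and Prrc2a -0.03 to 0.01. Genes such as Bmp5 and Grem1, with under 30 counts per library, are limited by counting error.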
